A study of Arabidopsis thaliana with 12 samples.

Results

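COR15A (AT2G42540) and COR15B (AT2G42530) are a tandem pair of cold-regulated genes of Arabidopsis thaliana with a probe set each, 2 of the 22746 non-control probe sets on the array. They were selected on their RMA values in these same arrays, for a rise with abscisic acid (ABA) and a fall under far-red light, so their differences between groups are described without a test. Plants 9 days old, raised at 22 °C without darkness, were exposed to 1 of 4 treatments over 24 h. Aerial parts were taken at 10 days of age, and each of 4 groups had 3 arrays, called biological replicates in the labels. The far-red with ABA group received supplemental far-red light and ABA, and the white light with ABA group received ABA in white light alone. The far-red group received supplemental far-red light without ABA, and the white light group was the mock-treated control. The ABA dose is printed in the labels as 1 mM, and white light was given to all groups. No genotype or accession is named in the labels, and the number of arrays limits the precision.

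Both genes encode small hydrophilic proteins of the late-embryogenesis-abundant (LEA) type that are imported into the chloroplast stroma, where they protect membranes during freezing. Their transcripts accumulate in the cold through the CBF transcription factors, which bind the CRT/DRE promoter element. They also accumulate with ABA, the hormone of drought and seed maturation, through bZIP factors that bind the ABRE element. Supplemental far-red light makes red light scarcer relative to far-red, as the shade of a canopy does, and is sensed by phytochromes.

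The arrays passed simple checks of tissue and similarity. All 5 measured leaf markers (of 7 listed) were called present on all 12 arrays, between 11.9 and 13.4 log2 units. The root expansin markers EXPA7 and EXPA18 (2 of 5 listed) had no present call on any array. Pearson correlations between arrays were 0.995 to 0.998 within groups and 0.988 to 0.997 between groups. The median value of an array was 5.45 to 5.62 log2 units. White light replicate 2 stood apart on the second principal component, with a score of 7.83 against 18.6 and 21.9 for the other white light arrays. It also had the lowest white light value of both genes, and results that rest on it are given with and without it or array by array.

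With ABA, COR15A was far higher in both light conditions. Its level, in log2 units after robust multi-array averaging (RMA) by the authors, was 10.54, 10.82 and 10.38 in replicates 1, 2 and 3 of far-red with ABA, against 7.23, 7.80 and 7.94 in far-red. In white light with ABA it was 11.01, 10.60 and 10.87, against 7.92, 7.11 and 7.80 in white light. The lowest array with ABA lay 2.44 log2 units above the highest without it under far-red light, and 2.68 above it in white light. COR15A lay above 96.7% to 98.0% of all probe sets on the arrays with ABA and above 71.3% to 81.4% on those without. In RNA from whole aerial parts, fewer cells of a type and less RNA per cell cannot be told apart.

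COR15B was also higher with ABA in both light conditions, by less. Its level was 8.47, 8.26 and 8.34 log2 units in far-red with ABA, against 6.92, 7.01 and 6.99 in far-red. It was 9.71, 9.18 and 9.77 in white light with ABA, against 8.20, 7.26 and 8.34 in white light. The groups did not overlap in either comparison, with gaps of 1.26 and 0.84 log2 units. Over all probe sets 12.3% had groups that did not overlap, in the direction of higher with ABA, under far-red light and 12.8% in white light. Both probe sets were called present by the detection algorithm on all 12 arrays.

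The ABA difference of COR15A was 2.92 log2 units under far-red light (SE 0.20, n = 3 against 3), or 7.59-fold, and 3.21 in white light (SE 0.20), or 9.26-fold. These were the 9th and the 7th largest rises among the 22746 probe sets. The ABA difference of COR15B was 1.39 under far-red light (SE 0.21), or 2.61-fold, and 1.62 in white light (SE 0.21), or 3.07-fold, which ranked 48th and 37th. Without white light replicate 2 the differences in white light were 2.96 for COR15A and 1.28 for COR15B.

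**Figure D1:**
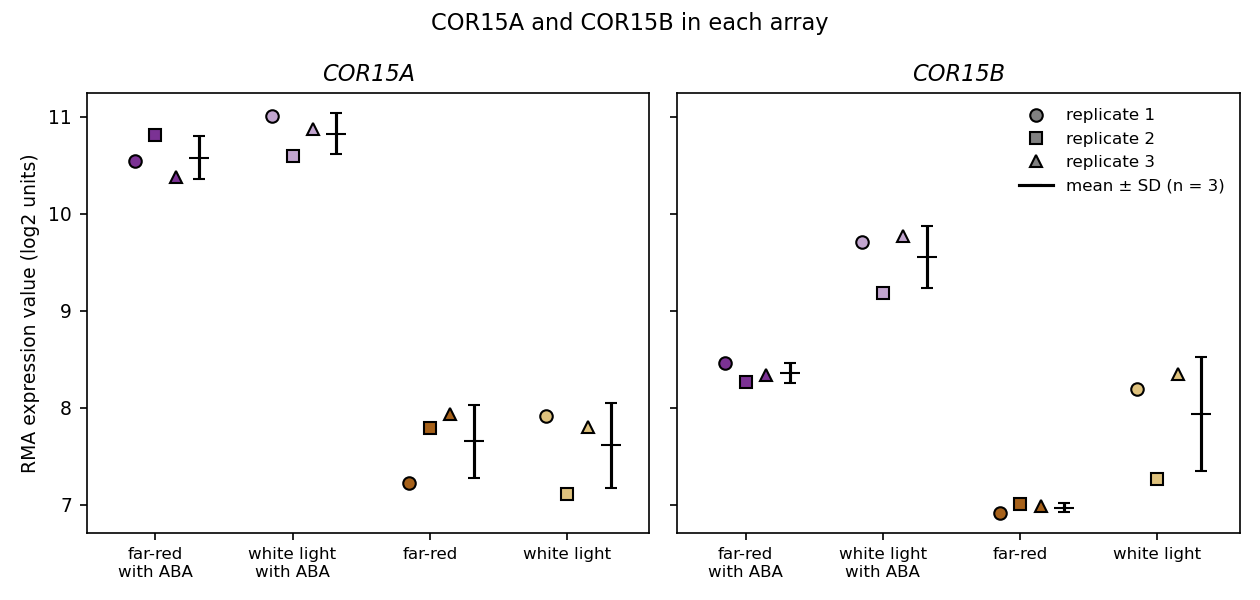
RMA expression value in log2 units (vertical axis) of COR15A (left) and COR15B (right) in each of the 12 arrays, by group, with symbols for the replicate and bars for the mean ± SD (n = 3). COR15A separates by ABA alone, whereas COR15B lies lower under far-red light at either ABA level, and white light replicate 2 is the lowest white light array of both genes.

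Far-red light separated the pair. COR15B was lower under far-red light both with and without ABA, while the values of COR15A overlapped between the light conditions. COR15B averaged 8.36 ± 0.10 log2 units in far-red with ABA and 9.55 ± 0.32 in white light with ABA (SD, n = 3 each), a difference of -1.19 (SE 0.21) or 2.29-fold lower. It averaged 6.97 ± 0.05 in far-red and 7.93 ± 0.59 in white light, a difference of -0.96 (SE 0.21) or 1.95-fold lower. These were the 8th and the 41st largest falls among all probe sets, and the groups did not overlap, with gaps of 0.72 and 0.26 log2 units. Over all probe sets 9.83% lay lower without overlap in the comparison with ABA and 10.7% in the one without. Without white light replicate 2, the difference without ABA was -1.30.

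COR15A averaged 10.58 ± 0.22 log2 units in far-red with ABA and 10.82 ± 0.21 in white light with ABA (SD, n = 3 each), a difference of -0.25 (SE 0.20). It averaged 7.65 ± 0.38 in far-red and 7.61 ± 0.44 in white light, a difference of 0.04 (SE 0.20). The groups overlapped in both comparisons. The sign of the second value changed with the setting, being -0.05 with each array centred on its median and -0.21 without white light replicate 2. The value with ABA stayed negative when 1 array was left out, at -0.36 to -0.15, and ranked 1252nd from the lowest among the 22746 probe sets. The far-red fall named in the choice of the pair was thus seen without overlap in COR15B. In COR15A a small fall with ABA lay within the overlap of the groups, and the values without ABA showed no steady direction.

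Set against the mock-treated control, the 2 treatments together left the pair at different points. COR15A was 2.97 log2 units higher in far-red with ABA than in white light (SE 0.20), 7.82-fold, and the groups did not overlap. The share of all probe sets without overlap was not counted for this comparison. COR15B was 0.42 log2 units higher (SE 0.21), or 1.34-fold, and its groups overlapped. Its arrays stood at 8.47, 8.26 and 8.34 in far-red with ABA and at 8.20, 7.26 and 8.34 in white light. The difference of COR15B thus rested mostly on white light replicate 2, at 7.26. In ascending order of their means, COR15A ran from white light through far-red and far-red with ABA to white light with ABA. The neighbours in each light pair overlapped. The COR15A means of white light and far-red differed by 0.04, and their order reversed without white light replicate 2 or with median centring. COR15B ran from far-red through white light and far-red with ABA to white light with ABA, and of these neighbours white light and far-red with ABA overlapped.

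The change of one gene relative to the other was followed as the COR15A value minus the COR15B value within each array. Its zero has no meaning, because levels of different probe sets are not comparable, so only its shifts between groups are read. It was 2.07, 2.55 and 2.04 log2 units in replicates 1, 2 and 3 of far-red with ABA and 1.30, 1.41 and 1.10 in white light with ABA. It was 0.31, 0.79 and 0.94 in far-red and -0.28, -0.15 and -0.54 in white light. No 2 of the 4 groups overlapped, and white light replicate 2 lay among its group here. How often other pairs of probe sets separate in this way was not counted, and these values are those that chose the pair.

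ABA shifted this difference by 1.54 log2 units under far-red light and by 1.59 in white light (SE 0.21 each, 8 residual degrees of freedom). The ABA fold change of COR15A was thus 2.91 times that of COR15B under far-red light and 3.02 times in white light. Far-red light shifted it by 0.95 with ABA and by 1.00 without (SE 0.21 each). The shift by far-red light with ABA minus that without ABA was -0.05 (SE 0.29). Leaving out 1 array at a time gave shifts of 1.35 to 1.68 for ABA and 0.78 to 1.19 for far-red light.

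**Figure D2:**
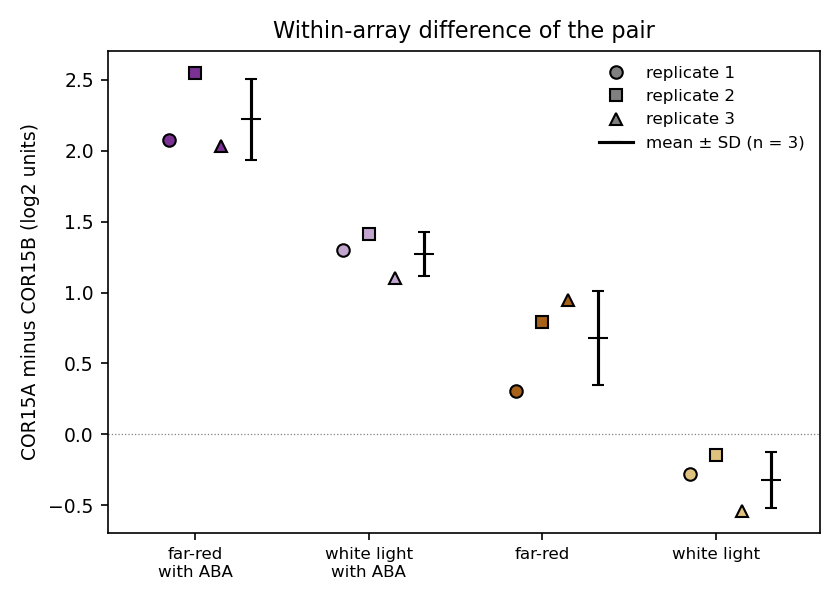
COR15A value minus COR15B value in log2 units (vertical axis) in each of the 12 arrays, by group, with symbols for the replicate and bars for the mean ± SD (n = 3). The 4 groups do not overlap, with means of 2.22 in far-red with ABA, 1.27 in white light with ABA, 0.68 in far-red and -0.32 in white light. The share of other probe set pairs without overlap was not counted.

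Probe sets can differ in how fully their signal follows the transcript, and tandem copies may share signal. The probe sequences were not used here, and the part of shared signal in these values was not tested. The highest value on an array was 13.58 to 13.70 log2 units, and COR15A and COR15B lay at 11.01 and 9.77 at most. Whether single probes came near the limit of their signal was not tested.

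Whether the ABA response of either gene differed between the light conditions is asked by the interaction. The choice of the pair named a rise with ABA and a fall under far-red light, not the interaction. That choice was made on the values of these same arrays, with earlier results known. The adjusted p values given here therefore cannot be taken as independent of the choice. For COR15A the ABA difference under far-red light minus that in white light was -0.29 log2 units (SE 0.29, 95% interval -0.90 to 0.33, limma adjusted p = 0.903). For COR15B it was -0.23 (SE 0.30, 95% interval -0.87 to 0.41, limma adjusted p = 0.933). Neither passed the threshold of 0.05, and these intervals bound what 3 arrays a group can show. Over the alternatives run, the adjusted p ranged from 0.734 to 0.990 for COR15A and from 0.840 to 0.996 for COR15B. Over all probe sets limma called 0 for the interaction (0%), with 1465 at an unadjusted p under 0.05 (6.44%). Without white light replicate 2 the values were -0.04 for COR15A and 0.10 for COR15B, neither of them called.

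Within groups, the pair tended to deviate together from array to array. In 10 of 12 arrays COR15A and COR15B lay on the same side of their group means. Pearson's r between the deviations was 0.71 over the 12 arrays, which share RNA and array between the genes, and 0.37 without white light replicate 2. That array lay 0.50 log2 units below its group mean for COR15A and 0.67 below for COR15B. White light with ABA replicate 2 was also below its group in both, by 0.23 and 0.37. The within-group SD, pooled over groups, was 0.33 for COR15A, 0.34 for COR15B and 0.25 for their difference. The range of COR15B was 0.09 over the far-red arrays against 1.08 over the white light arrays, of which replicate 2 stood at 7.26 and the others at 8.20 and 8.34.

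**Figure D3:**
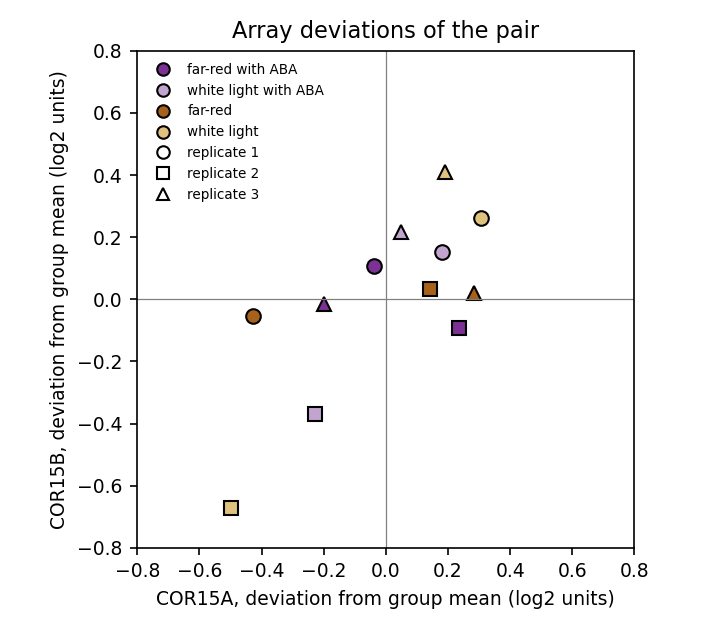
Deviation of each array from its group mean in log2 units, COR15A on the horizontal and COR15B on the vertical axis, with colours for the group and symbols for the replicate. Most arrays lie in the lower left or upper right part, and white light replicate 2 is the farthest from the centre, at -0.50 and -0.67.

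The genes around the pair on the chromosome were measured to see whether they moved with it. In the RefSeq annotation (assembly TAIR10.1) COR15B and COR15A are adjacent, with 0 genes between them, and of the 5 annotated genes on either side 4 could be matched to a probe set listed with a single gene. The others were not analysed here, since the platform table used does not list 8730 of the probe sets. AT2G42520, a DEAD-box RNA helicase gene next to COR15B that is annotated to overlap it by 468 bases, had 7.05, 7.06 and 7.25 log2 units in far-red with ABA and 7.12, 7.14 and 7.04 in white light with ABA. It had 7.21, 7.41 and 7.29 in far-red and 7.18, 7.05 and 7.16 in white light. Its difference was -0.18 for ABA under far-red light (SE 0.09, limma adjusted p = 0.209) and 0.17 for far-red light without ABA (SE 0.09, adjusted p = 0.259), of the opposite sign to COR15B in both. Its far-red arrays all lay above its white light arrays, as did those of 14.8% of all probe sets.

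The amine oxidase gene AT2G42490, also on the side of COR15B, stayed between 8.13 and 8.35 log2 units on every array. On the other side, AT2G42560, a gene of the LEA type, was called absent on all 12 arrays, between 3.47 and 3.92 log2 units. TBL39, a gene of the trichome birefringence-like family, had 6.68, 6.73 and 6.66 in far-red with ABA against 5.99, 6.42 and 6.35 in white light with ABA, a difference of 0.44 (SE 0.12, limma adjusted p = 0.160). These groups did not overlap, and 8.97% of all probe sets lay higher without overlap there. limma called none of the 4 neighbours in any of the 4 comparisons. Over all probe sets it called 10.3% for ABA under far-red light, 6.43% for ABA in white light, 0.369% for far-red light with ABA and 6.12% for far-red light without ABA.

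Of 24 other cold-regulated genes of the CBF and ABA regulons, 6 could be matched to a probe set listed with a single gene, and the rest were not analysed here. For ABA, 3 of the 6 rose and 0 fell in either light condition, against 5.06% of all probe sets called higher and 5.28% called lower under far-red light, and 4.02% higher and 2.41% lower in white light. For far-red light, 0 rose and 2 fell, both with and without ABA, against 0.0791% of all probe sets called higher and 0.29% called lower with ABA, and 3.87% higher and 2.26% lower without. After median centring of the arrays, calls over all probe sets that were higher made up 59.6% in place of 48.9% for ABA under far-red light, 43.9% in place of 62.5% for ABA in white light and 23.2% in place of 63.2% for far-red light without ABA. The median difference of the 6 was 0.44 for ABA under far-red light and 0.45 in white light, with medians of -0.015 and -0.0022 over all probe sets. It was -0.22 for far-red light with ABA and -0.51 without, with medians of -0.0035 and 0.0026 over all probe sets.

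The 3 that rose with ABA were LTI30, LEA4-5 and COR47. LTI30 (AT3G50970), a dehydrin that binds membranes, had 7.51, 7.35 and 8.07 log2 units in far-red with ABA against 4.37, 4.68 and 4.75 in far-red. That was a difference of 3.04 (SE 0.27, limma adjusted p = 5.2e-06), and in white light it was 2.37 (SE 0.27, adjusted p = 5.7e-05). Its far-red difference was 0.07 with ABA (limma adjusted p = 0.941). Without ABA it was -0.60 (SE 0.27, limma adjusted p = 0.210), not called. The far-red arrays all lay below the white light arrays, as did those of 10.7% of all probe sets. LEA4-5 (AT5G06760), of the group 4 LEA proteins, was called absent on every array without ABA. It was at least 3.30-fold higher in far-red with ABA and at least 3.31-fold higher in white light with ABA. In each ABA group 2 of 3 arrays had a present call. The log2 differences were 1.72 and 1.73 (SE 0.18 each). The words at least refer to the absent calls without ABA and do not cover this sampling error.

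COR47 (AT1G20440), an acidic dehydrin, had 9.33, 9.47 and 9.45 log2 units in far-red with ABA and 9.78, 9.49 and 9.70 in white light with ABA. In far-red it had 8.70, 8.46 and 8.73, and in white light 9.33, 8.65 and 9.17, with white light replicate 2 lowest again. It rose with ABA by 0.79 under far-red light (SE 0.14, limma adjusted p = 0.0027) and by 0.61 in white light (SE 0.14, adjusted p = 0.0174). The white light call was lost when white light replicate 2 was left out (0.41), and likewise for replicate 1 (0.55) or 3 (0.59) of white light with ABA. Its far-red differences were -0.24 with ABA (adjusted p = 0.541) and -0.42 without (SE 0.14, adjusted p = 0.0953), neither called. The difference without ABA was called at -0.62 without white light replicate 2, at -0.51 with each array centred on its median, and with the replicate number as a block (adjusted p = 0.0488).

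COR27 and COR28, cold-regulated genes that also take part in the clock and in light signalling, were the 2 that fell under far-red light. COR27 (AT5G42900) had 5.39, 5.26 and 5.65 log2 units in far-red with ABA against 6.24, 5.88 and 6.17 in white light with ABA, a difference of -0.66 (SE 0.12, limma adjusted p = 0.0274). Without ABA it had 5.40, 5.24 and 5.59 in far-red against 6.14, 5.96 and 5.97 in white light, a difference of -0.62 (SE 0.12, adjusted p = 0.0110). COR28 (AT4G33980) differed by -0.84 with ABA (SE 0.14, adjusted p = 0.0133) and by -0.63 without (SE 0.14, adjusted p = 0.0177). Their ABA differences lay between -0.08 and 0.13, and none was called.

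These far-red calls depended on single arrays. With ABA, COR27 lost its call when replicate 1 (-0.64) or 2 (-0.58) of far-red with ABA was left out, or replicate 1 (-0.59) or 3 (-0.62) of white light with ABA. It also lost it when the fit held no other groups. COR28 lost it when replicate 2 (-0.71) or 3 (-0.83) of far-red with ABA or replicate 1 (-0.72) of white light with ABA was left out. Without ABA, the call of COR27 was lost without far-red replicate 2 (-0.53) or white light replicate 1 (-0.56), and that of COR28 without far-red replicate 2 (-0.58) or 3 (-0.58) or white light replicate 1 (-0.66) or 3 (-0.57).

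The sixth gene, LEA4-1, was called absent on all 12 arrays. Of 16 listed CBF and DREB factors and their regulators 1 could be matched in this way, ZAT10 (AT1G27730), a zinc-finger repressor of stress responses. Its differences were -0.27 for ABA under far-red light, -0.28 for ABA in white light, 0.01 for far-red light with ABA and 0.00 without, none called (SE 0.20 each). The 28 listed ABA receptors, phosphatases, kinases and ABRE-binding factors and the 10 phytochromes and their interacting factors were not analysed here.

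**Figure D4:**
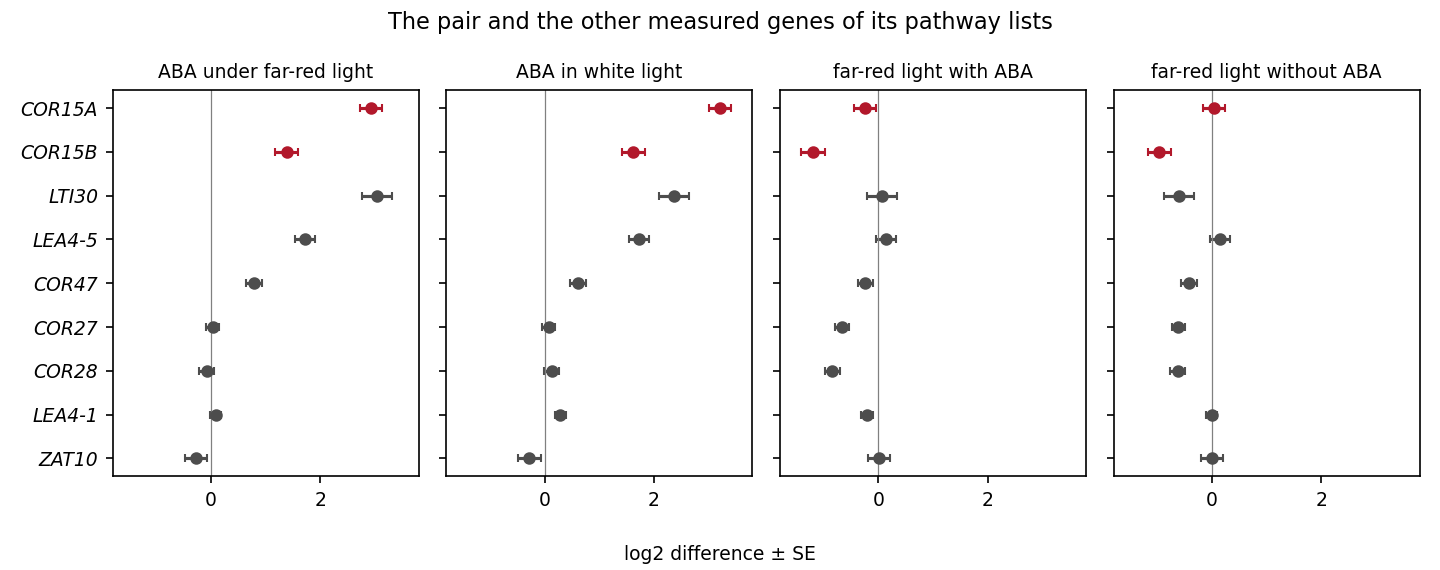
Log2 difference ± SE (horizontal axis) of COR15A and COR15B (red) and of the 7 other measured genes of the lists (grey), in a panel for each comparison (n = 3 against 3). COR15B is to the right of zero in both ABA panels and to the left of it in both far-red panels, with differences of 1.39, 1.62, -1.19 and -0.96.

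The genes whose levels followed each of the pair most closely over the 12 arrays were listed. Likeness was Pearson's r of log2 values over the arrays, among 8415 probe sets of a single gene that were called present on at least 3 arrays. Since the arrays fall into 4 groups of shared treatment, r mainly follows the group means and is given as a description. COR15A and COR15B had an r of 0.82 with each other, and among all 15324 other probe sets present on at least 3 arrays COR15B ranked 770th in likeness to COR15A and COR15A 382nd in likeness to COR15B.

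Most like COR15A were AT3G53980 (r = 0.990), AT2G41190 (0.988), HIS1-3 (0.981), AT5G18200 (0.980), AT2G37870 (0.978) and UBC30 (0.977). AT3G53980 and AT2G37870 encode proteins of the lipid-transfer family, HIS1-3 a linker histone induced by drought and UBC30 a ubiquitin-conjugating enzyme. HIS1-3 was called present on 3 of 3 arrays in each ABA group, but on 0 of 3 in far-red and 1 of 3 in white light. It met the filter on present calls through the ABA groups, where it was high. AT3G53980 had 9.11, 9.11 and 9.31 log2 units in far-red with ABA and 9.20, 9.16 and 9.19 in white light with ABA. It had 5.81, 6.19 and 6.56 in far-red and 6.65, 6.14 and 6.37 in white light, a split by ABA alone as in COR15A. Over the 6 genes the ABA differences ranged from 0.46 to 3.90 log2 units and the far-red differences from -0.29 to 0.12.

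Most like COR15B were AT5G27280 (r = 0.951), AT2G32150 (0.949), EXLA1 (0.946), AT1G02300 (0.946), AT3G27110 (0.945) and AT2G23120 (0.944). EXLA1 encodes an expansin-like protein and AT2G23120 a small LEA-type protein. AT2G32150, of the haloacid dehalogenase-like hydrolases, had 8.14, 7.97 and 8.09 log2 units in far-red with ABA and 8.61, 8.65 and 8.53 in white light with ABA. It had 7.16, 7.01 and 7.21 in far-red and 8.10, 7.73 and 8.15 in white light, lowest in far-red and highest in white light with ABA as in COR15B. Over the 6 genes the ABA differences ranged from 0.33 to 1.04 and the far-red differences from -0.92 to -0.22, so that none of the 6 matched the ABA differences of COR15B in size.

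The 2 sets of 6 shared 0 genes. With an r of 0.82 between the pair, no gene could reach the r values of both sets, so this only restates that r. Which genes were named depended on the measure, since by Spearman's rho 0 of the 6 genes stayed among the 6 most like for either member. Without 1 array at a time 4 to 6 of the 6 were kept for COR15A and 0 to 6 for COR15B, with 0 kept without far-red replicate 3 and 2 kept without white light replicate 2 or far-red with ABA replicate 2. It was 3 without replicate 3 of either group with ABA.

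**Figure D5:**
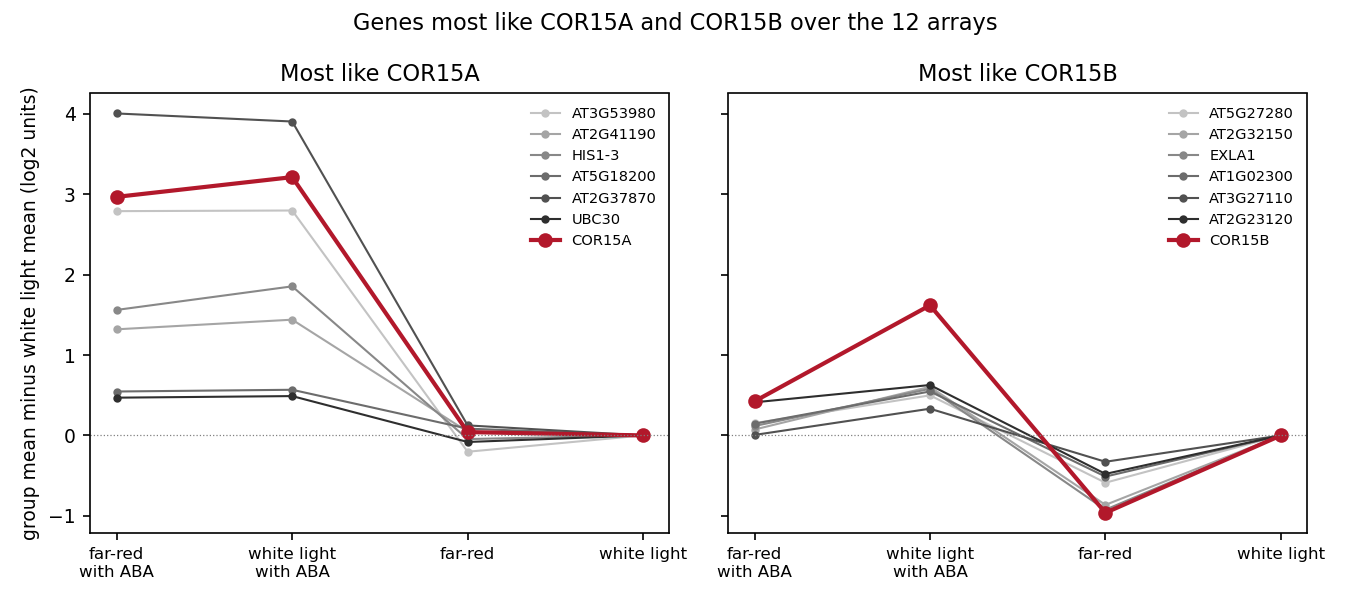
Group mean minus the white light mean in log2 units (vertical axis) of the 6 genes most like COR15A (left) and COR15B (right), in grey, with the pair's own gene in red. The genes at left are high in both ABA groups, and those at right are lowest in far-red, where COR15B lies 0.96 log2 units below white light.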

How the data were processed

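Biotin-labelled cRNA from total RNA of 12 samples was hybridised to 1-colour Affymetrix arrays. The log2 values per probe set were deposited by the authors after RMA with the affy package, and the detection calls come from MAS5, per the submitters' processing notes. No coordinates or sequences are printed. Tool versions and the build were not given in the sources used here. RMA adjusts background, scales the arrays and compresses low values.

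The 64 control probe sets were left out and 22746 tested. GEO's platform table named 13513 of them with 1 gene, 503 with several, and did not list 8730; 13436 were matched to RefSeq genes (TAIR10.1). limma 3.58.1 in R 4.3.3 fitted a mean per group on all 12 arrays with eBayes and two-sided Benjamini-Hochberg adjustment over all probe sets (8 residual and 7.21 prior degrees of freedom), tested on simulated data. A fold against a group called absent on every array is a lower bound, against the higher of its own value and the lowest present signal. The SD beside a group mean measures the spread between the 3 arrays of that group. Each SE comes from a spread pooled over all 4 groups, which eBayes also moderates for the limma values. An SE therefore does not follow the SD of the groups compared. Python 3.11.15 and matplotlib 3.10.9 did the rest.

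The members and gene lists were chosen with earlier results of these data known. Named were the pair, measured genes among 5 neighbours on either side, the 6 genes most like each, and listed genes. Alternatives were other scalings (median centring, quantile), a trended robust variance, only the groups compared, a replicate block, a filter on present calls, the series' value table (equal to within 5.0e-09), leaving out each array and, for likeness, Spearman's rho.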

Additional observations from a re-analysis of the deposited data

How the results depend on the processing

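The differences of COR15A and COR15B and of their within-array difference moved by less than the pooled SD between replicates under every alternative run. COR15B came close to it without white light replicate 2, at 1.28 in place of 1.62 for ABA in white light. For far-red light without ABA it was -1.30 in place of -0.96. These shifts exceeded the SE of 0.21, and the pooled SD of 0.34 includes that array. The interaction of COR15A and COR15B was not called under any alternative. It ranged from -0.50 to -0.04 for COR15A and from -0.44 to 0.10 for COR15B when 1 array was left out, with the positive value without white light replicate 2. Same-numbered arrays of different groups had correlations of their deviations from -0.05 to 0.27, with 8 of 18 above 0.1, so the numbers were not taken to pair the arrays over all groups. For far-red with ABA and far-red all 3 were above 0.1 (0.124, 0.143 and 0.273). For white light with ABA and white light they were 0.153, 0.218 and 0.0962. Arrays of unlike number were not compared, so whether same-numbered arrays are more alike than others was not tested. With the replicate block the counts of called probe sets were 2694 for ABA under far-red light, 1760 for ABA in white light, 103 for far-red light with ABA, 1762 for far-red light without ABA and 0 for the interaction, against 2352, 1463, 84, 1393 and 0. The interaction values under the replicate block were -0.29 for COR15A and -0.23 for COR15B, as without it. Their SE were 0.30 and 0.24 with the block, against 0.29 and 0.30 without it. Among the measured listed genes and the neighbours the block changed the call of COR47 for far-red light without ABA and no other. Calls of the genes most like the pair were not compared between alternatives. Leaving out 1 array gave 1518 to 2434, 908 to 1510, 31 to 81, 418 to 1689 and 0 to 2 called probe sets in the same order. A trended robust variance gave 149 for far-red light with ABA and 2 for the interaction, and fitting only the groups compared gave 642 for far-red light without ABA. With median centring of each array the share of calls that were higher was 43.9% in place of 62.5% for ABA in white light, 59.6% in place of 48.9% for ABA under far-red light, and 23.2% in place of 63.2% for far-red light without ABA (49.8% with quantile normalization). Of the cold-regulated genes, 0 to 2 were called for far-red light with ABA and 0 to 3 without ABA when 1 array was left out, and 1 for far-red light with ABA with only the groups compared. By Spearman's rho 0 of the 6 genes most like COR15A and 0 of those most like COR15B were kept. With median centring 3 of those most like COR15B were kept, and 0 to 6 when 1 array was left out, an alternative chosen after seeing the data. The cause of these shifts was not tested.

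Values near zero that were not called changed sign. With median centring the ABA difference of AT2G42490 in white light was -0.026 and the difference of ZAT10 for far-red light without ABA was -0.092. With quantile normalization ZAT10 was at -0.030 and LEA4-1 at 0.043 for far-red light without ABA. When 1 array was left out, ABA in white light gave -0.0058 to 0.077 for AT2G42490, -0.16 to 0.060 for AT2G42560 and -0.11 to 0.11 for TBL39. ABA under far-red light gave -0.080 to 0.12 for COR27, -0.23 to 0.050 for COR28 and -0.019 to 0.20 for LEA4-1. Far-red light with ABA gave -0.044 to 0.056 for AT2G42520, -0.051 to 0.0090 for AT2G42490, -0.045 to 0.13 for AT2G42560, -0.15 to 0.50 for LTI30, -0.043 to 0.37 for LEA4-5 and -0.16 to 0.23 for ZAT10. Far-red light without ABA gave -0.20 to 0.010 for AT2G42560, -0.12 to 0.10 for LEA4-1 and -0.13 to 0.24 for ZAT10. AT2G42560 and LEA4-1 were at background on all arrays, so no fold is given for them.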
